A study of Mus musculus with 12 samples.

Results

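The accessibility of chromatin was examined at 7 cytotoxic effector genes, Gzma, Gzmb, Prf1, Nkg7, Fasl, Ccl5 and Xcl1, in 3 subsets of thymic invariant natural killer T (iNKT) cells from mice with and without Hivep3. The regions were those of the deposited table of normalized counts that overlapped a gene body (GENCODE vM21, mm10) or the 10 kb on either side of it. This gave 39 of 63309 regions, each 500 bp long, of which 5 lay at Gzma, 5 at Gzmb, 3 at Prf1, 6 at Nkg7, 8 at Fasl, 7 at Ccl5 and 5 at Xcl1.

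Omni-ATAC-seq, in which a transposase inserts adapters into accessible DNA, had been applied to the iNKT1, iNKT2 and iNKT17 subsets of thymi from C57BL/6 and Hivep3-/- mice aged 8 to 9 weeks. There were 2 libraries for each of the 6 groups, 12 in all. The question was where the subsets differ in accessible regions and whether loss of Hivep3, a zinc finger protein, changes them. Sorting took CD122+ ICOS- cells as iNKT1, and divided CD122- ICOS+ cells into iNKT2 (Izumo1r+ CD138-) and iNKT17 (Izumo1r- CD138+). The sorted subsets of pooled thymi were transposed together and then sorted again by ICOS and CD138. The methods speak of pooled thymi while the sample titles number single mice, and which part of Hivep3 is deleted is not given in the sources used here. It is thus unclear whether the libraries of a group come from separate animals or pools, and p-values measure only the spread between these libraries. In the Hivep3-/- groups the 21 regions at the Hivep3 locus had a mean level of 11.4 to 20.1 normalized insertions per kb per library, and in C57BL/6 one of 10.9 to 20.6, which checks nothing where the deleted part is unknown.

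Levels are given on the linear scale, in normalized insertions per kb, as 2 to the power of the deposited log2 values, with replicate 1 before replicate 2. In the normalized values all libraries have nearly the same sum and the same highest value, so the depth is unknown. Below the median of each library, the values form steps, whose number is given here because no read depth was available. C57BL/6 libraries had 139 and 170 such steps (iNKT1), 219 and 159 (iNKT2), and 142 and 134 (iNKT17), and Hivep3-/- libraries 227 and 491, 91 and 118, and 85 and 73 in the same order. Low levels were thus coarsest in the iNKT2 and iNKT17 libraries of Hivep3-/- mice. Marker genes of the subsets were read as a check of the labels. Some of them encode proteins used in the sort, such as Il2rb for CD122 and Sdc1 for CD138. The check is thus not independent of the sort, and it is given here for C57BL/6 libraries with the iNKT17 and iNKT1 lists. The summed level over the 71 regions at 7 iNKT17 markers was 2186 and 2164 in C57BL/6 iNKT17 libraries and 242 to 297 in the iNKT1 and iNKT2 libraries of that genotype, so that the iNKT17 label fits its markers. The 44 regions at 5 iNKT1 markers summed to 1750 and 1777 for iNKT1 libraries of C57BL/6, 858 and 869.8 for iNKT2, and 1017 and 1089.8 for iNKT17.

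Cytotoxic lymphocytes kill by releasing granules that hold the pore-forming protein perforin and serine proteases called granzymes, and by the ligand of the death receptor Fas on their surface. Activated cytotoxic cells also secrete chemokines that attract other leukocytes. Among thymic iNKT subsets, iNKT1 cells resemble natural killer (NK) cells and make interferon gamma under the control of T-bet, a T-box factor, whereas iNKT2 and iNKT17 cells are known for interleukin 4 and interleukin 17.

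Windows of 200 bases were taken from 19 regions, those nearest the gene starts and those with the largest called difference between subsets or a call between genotypes. Shown are the windows of all 7 starts, because the levels there are compared for every gene, and 4 others, from the Gzma regions farthest apart between subsets, a Gzmb exon and the second Nkg7 region called between genotypes. They were read from the RefSeq GRCm38.p6 genome (mm10) on the strand of each gene, 5′ to 3′. Each window is the stretch of its region, free of annotated UTR, with the most matches to the first 3 motifs named here, a choice made after the matches were seen. Capitals mark matches on either strand to the T-box letters GGTGTGA, the Runt letters AACCACA and the ETS letters CAGGAAG. Of the 19 windows, 11 held such a match and 8 held none, and 2 of those without one are shown.
Gzma start, chr13:113100982-113101181, minus strand: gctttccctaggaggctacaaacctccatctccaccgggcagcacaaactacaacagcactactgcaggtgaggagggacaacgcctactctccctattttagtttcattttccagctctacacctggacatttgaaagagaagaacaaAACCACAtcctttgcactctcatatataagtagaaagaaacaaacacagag
Gzma, 10.3 kb downstream of the start within a Cdc20b intron, chr13:113090570-113090769, minus strand: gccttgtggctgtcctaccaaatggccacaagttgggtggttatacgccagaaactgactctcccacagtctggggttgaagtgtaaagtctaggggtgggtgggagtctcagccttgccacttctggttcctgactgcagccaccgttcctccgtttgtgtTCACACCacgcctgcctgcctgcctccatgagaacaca
Gzma, 13.2 kb downstream of the start within a Cdc20b intron, chr13:113087690-113087889, minus strand: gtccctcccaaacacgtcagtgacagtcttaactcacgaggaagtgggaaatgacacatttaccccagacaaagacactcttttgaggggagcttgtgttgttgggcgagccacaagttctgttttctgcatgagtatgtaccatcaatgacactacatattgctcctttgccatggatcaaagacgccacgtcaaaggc
Gzmb start, chr14:56262295-56262494, minus strand: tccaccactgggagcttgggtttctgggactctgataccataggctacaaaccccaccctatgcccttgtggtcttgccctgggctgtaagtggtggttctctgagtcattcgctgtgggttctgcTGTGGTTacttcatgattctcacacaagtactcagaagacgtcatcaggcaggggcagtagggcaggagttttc
Gzmb exon, 2.31 kb downstream of the start, chr14:56259847-56260046, minus strand: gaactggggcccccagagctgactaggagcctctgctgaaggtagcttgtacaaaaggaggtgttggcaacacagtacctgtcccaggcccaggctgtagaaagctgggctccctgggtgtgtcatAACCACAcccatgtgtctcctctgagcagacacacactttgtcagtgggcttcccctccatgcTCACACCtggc
Prf1 start, chr10:61297575-61297774, plus strand: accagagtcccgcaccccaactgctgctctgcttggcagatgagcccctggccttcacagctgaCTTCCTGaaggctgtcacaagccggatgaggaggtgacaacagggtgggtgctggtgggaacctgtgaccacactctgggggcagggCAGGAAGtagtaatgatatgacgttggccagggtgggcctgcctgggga
Nkg7 start, chr7:43436846-43437045, plus strand: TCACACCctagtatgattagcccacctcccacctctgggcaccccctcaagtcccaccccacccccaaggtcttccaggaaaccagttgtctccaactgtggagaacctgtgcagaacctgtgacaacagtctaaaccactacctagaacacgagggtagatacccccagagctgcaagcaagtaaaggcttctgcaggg
Nkg7 upstream promoter, chr7:43436398-43436597, plus strand: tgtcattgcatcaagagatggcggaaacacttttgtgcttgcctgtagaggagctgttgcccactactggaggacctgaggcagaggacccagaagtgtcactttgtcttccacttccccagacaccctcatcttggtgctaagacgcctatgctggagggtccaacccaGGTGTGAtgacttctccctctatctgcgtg
Fasl start, chr1:161788496-161788695, minus strand: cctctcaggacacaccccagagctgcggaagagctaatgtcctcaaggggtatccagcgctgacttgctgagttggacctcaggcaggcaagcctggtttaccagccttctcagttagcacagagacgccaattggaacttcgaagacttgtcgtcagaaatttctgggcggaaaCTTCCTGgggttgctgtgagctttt
Ccl5 start, chr11:83530519-83530718, minus strand: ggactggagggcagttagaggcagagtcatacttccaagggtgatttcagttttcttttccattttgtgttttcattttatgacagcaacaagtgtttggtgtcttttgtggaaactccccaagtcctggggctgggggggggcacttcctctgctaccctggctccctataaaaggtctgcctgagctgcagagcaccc
Xcl1 start, chr1:164935575-164935774, minus strand: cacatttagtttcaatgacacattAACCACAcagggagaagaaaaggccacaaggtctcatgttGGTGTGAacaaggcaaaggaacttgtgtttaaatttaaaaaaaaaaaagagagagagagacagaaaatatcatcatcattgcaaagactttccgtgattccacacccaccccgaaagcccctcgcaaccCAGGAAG

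Over the full 500 bp and both strands, T-box letters were present in 8 of the 39 effector regions and in 8.57% of all regions. Runt letters occurred in 10 effector regions and 17.4% of all, and ETS letters in 11 and 29.1%. The bZIP letters TGANTCA were found in 6 effector regions and 15.9% of all, the NFAT letters TTTTCCA in 2 and 10.1%, and an NF-kB consensus in 4 and 8.6%. The region at the Xcl1 start held T-box, Runt and ETS letters, the region at the Nkg7 start 2 T-box matches, and that at the Prf1 start 3 ETS matches. These matches describe the letters only, and the letters of different motifs may overlap.

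Effector regions were most accessible in iNKT1 cells. In C57BL/6 mice, all 39 had a higher level in both iNKT1 libraries than in either iNKT2 library, and likewise against iNKT17. Of all 63309 regions, 37.1% lay apart from iNKT2 in this direction and 36.7% in the other, and 39.1% and 36% from iNKT17. A region was tested where the mean level of either compared group was at least 5, and called at a limma adjusted p under 0.1 with a difference of at least 3-fold. Of 38 regions tested between C57BL/6 iNKT1 and iNKT2, 27 were called higher in iNKT1 and 0 lower, while 7.33% of all tested regions were called higher and 8.71% lower. A total of 37 of the 38 had an unadjusted p under 0.05, as did 54.4% of all tested regions. Against iNKT17, 30 of 38 were called higher and 0 lower, with 9.72% and 10.8% of all tested regions. All 38 had an unadjusted p under 0.05, beside 57.2% of all. The median log2 difference of the members was 3.30 against iNKT2 and 4.33 against iNKT17, and that of all tested regions 0.0063 and 0.015. In every comparison, a member that passed the level filter only through the group where it is high had to differ, so counts and medians over the members are a description only. In such bulk libraries, fewer cells with an open region and less accessibility in each cell cannot be told apart.

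**Figure D1:**
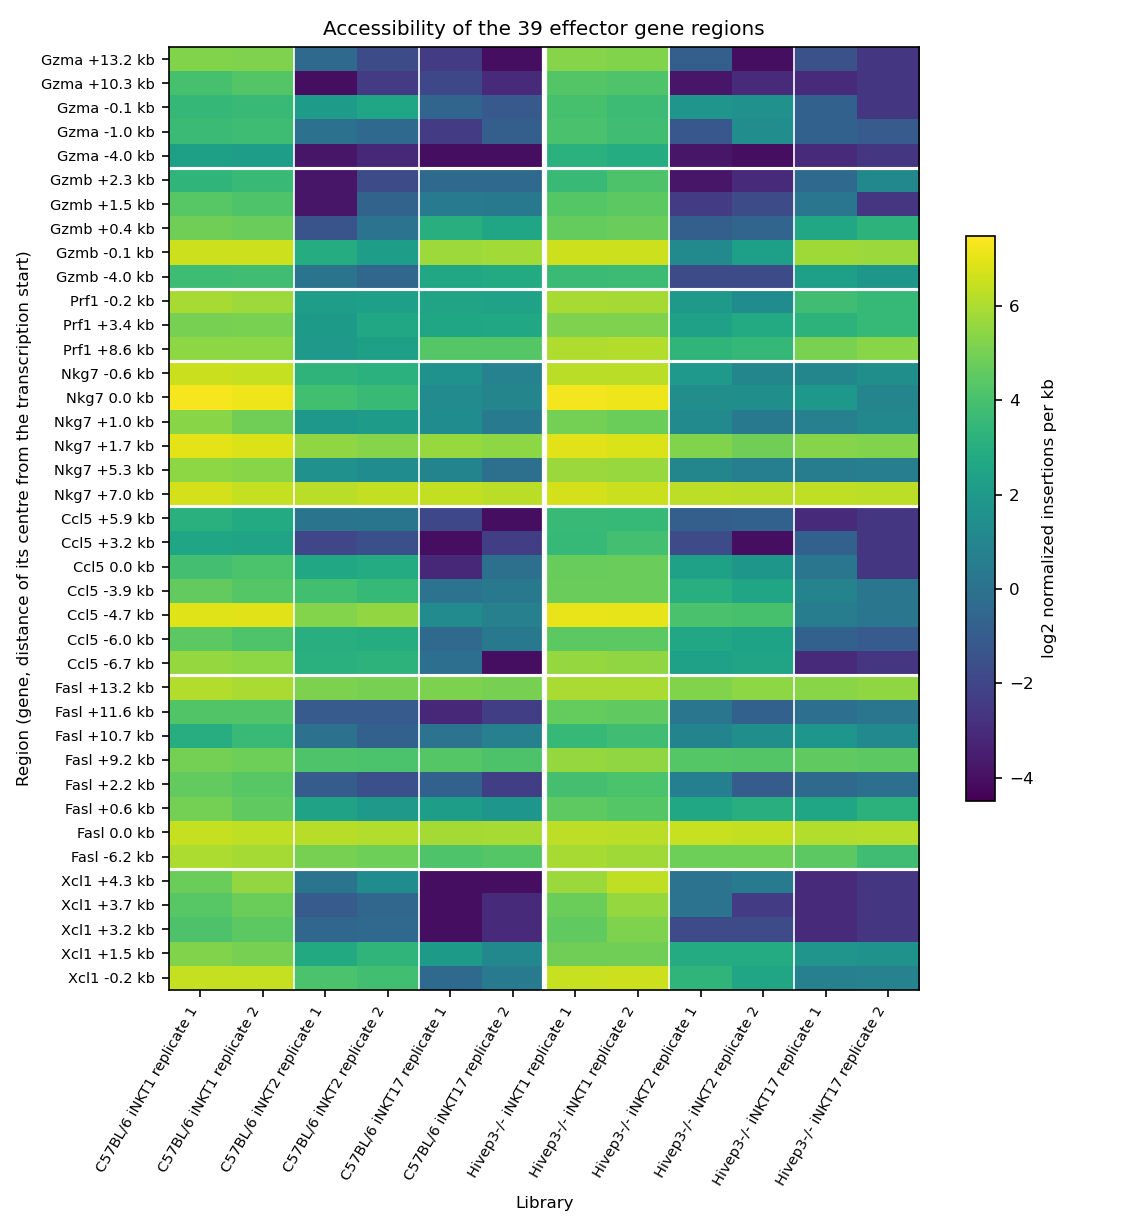
Accessibility of the 39 effector regions in the 12 libraries, as a heatmap of log2 normalized insertions per kb, with regions ordered by gene and by distance of the centre from the gene start in kb. The iNKT1 libraries of both genotypes have the high values at nearly all regions. The regions at the Fasl start and at the promoter shared by Etfb and Gm45233 are high in all 12.

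Averaged over a locus, the level in C57BL/6 iNKT1 cells was highest at Nkg7, at 96.0 and 85.1, followed by Prf1 at 46.1 and 43.8. Xcl1 at 38.0 and 43.8 and Fasl at 42.1 and 38.3 overlapped each other, as did Ccl5 at 35.3 and 33.9 and Gzmb at 34.5 and 33.4. Gzma was lowest at 16.5 and 17.2. In C57BL/6 iNKT2 cells the order was Nkg7 at 25.8 and 25.3, Fasl at 21.1 and 19.2, Ccl5 at 11.0 and 12.1, Xcl1 at 5.32 and 5.72, Prf1 at 4.18 and 5.34, Gzmb at 1.84 and 1.45, and Gzma at 1.25 and 1.46. Xcl1 and Prf1 overlapped there, as did both granzymes. The order in C57BL/6 iNKT17 cells was Nkg7 at 23.9 and 21.1, Fasl at 17.6 and 17.2, Gzmb at 14.1 and 14.6, Prf1 at 10.5 and 10.6, Xcl1 at 1.00 and 0.766, Ccl5 at 0.802 and 0.784, and Gzma at 0.273 and 0.247. Gzmb thus stood next to Fasl in iNKT17 cells and near the end in iNKT2 cells, while Ccl5 and Xcl1 were near the bottom of the range in iNKT17 cells and overlapped each other. At Nkg7 the locus mean includes the shared promoter of Etfb and Gm45233, which was open in every group.

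In Hivep3-/- iNKT1 cells the locus mean was again highest at Nkg7, at 91.5 and 84.8. Prf1 at 54.9 and 54.7 overlapped Xcl1 at 44.8 and 58.5, and Ccl5 at 40.6 and 40.0 overlapped Fasl at 40.9 and 39.4, followed by Gzmb at 33.4 and 35.0 and Gzma at 20.2 and 18.1. For Hivep3-/- iNKT2 cells the order was Fasl at 23.4 and 23.5, Nkg7 at 21.2 and 18.8, Prf1 at 6.41 and 6.96, Ccl5 at 6.03 and 5.38, Xcl1 at 3.97 and 3.06, Gzma at 0.890 and 1.18, and Gzmb at 0.679 and 1.25. Only the granzymes overlapped. Prf1 stood above Ccl5 and Xcl1 there, whereas in C57BL/6 iNKT2 cells Ccl5 stood above Prf1. The places of Fasl and Nkg7 are not compared between genotypes, because the Nkg7 mean includes the promoter shared by Etfb and Gm45233. That promoter had a mean level of 81.0 in C57BL/6 and 77.5 in Hivep3-/- iNKT2 cells. Without it, Fasl would be highest in both genotypes. In Hivep3-/- iNKT17 cells Nkg7 at 21.7 and 20.6, Fasl at 21.0 and 21.1 and Prf1 at 19.2 and 21.4 overlapped, above Gzmb at 13.8 and 13.4, Xcl1 at 1.07 and 1.09, Ccl5 at 0.836 and 0.490 and Gzma at 0.350 and 0.230. Without the shared promoter, at a mean of 79.6 there, Nkg7 would stand below Gzmb. The same holds for C57BL/6 iNKT17 cells, where that promoter had a mean level of 80.4.

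**Figure D2:**
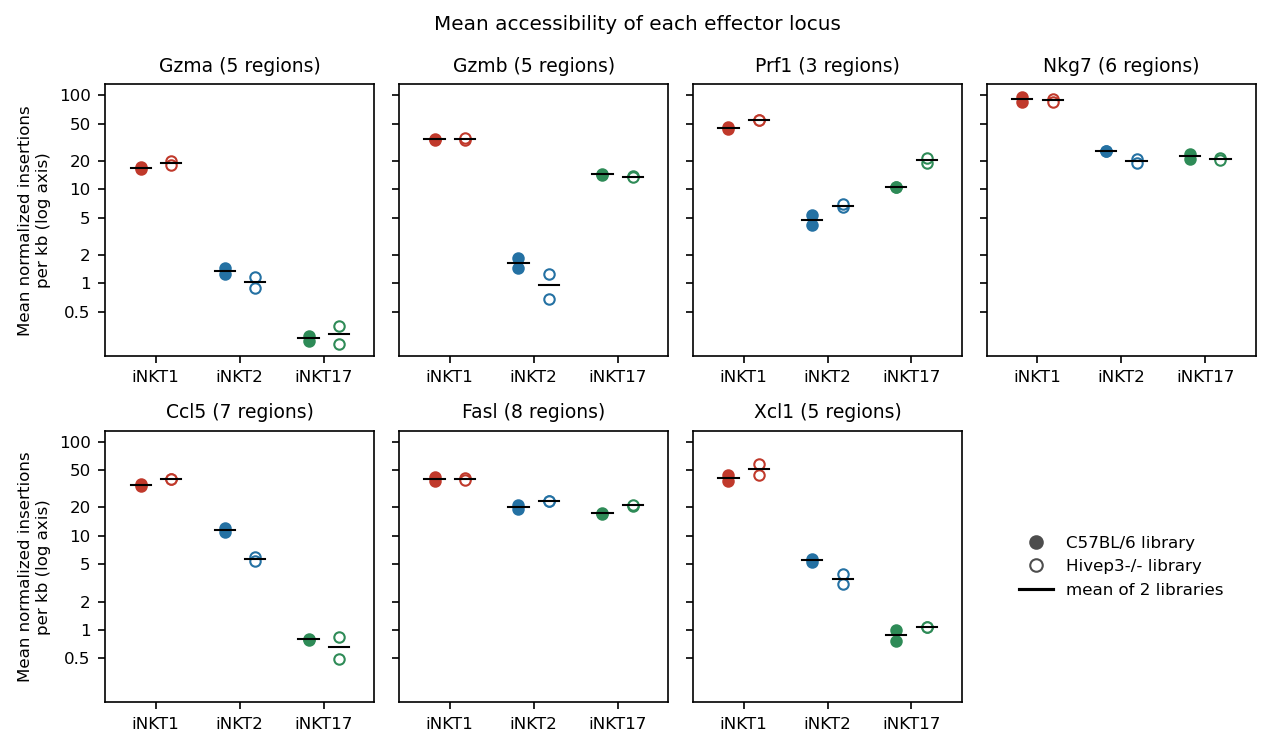
Mean level over the regions of each of the 7 loci, in normalized insertions per kb on a log axis, for the 2 libraries of each subset and genotype. Points for iNKT1 lie above those for the other subsets at all 7 loci, and iNKT17 points lie above iNKT2 points at Gzmb and Prf1 but below them at Ccl5, Xcl1 and Gzma.

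Gzma (ENSMUSG00000023132.8, chr13:113093825-113100981, minus strand) encodes granzyme A, a protease of tryptase type. The region at its start, chr13:113100802-113101301, had levels of 11.2 and 12.4 in C57BL/6 iNKT1, 4.38 and 5.93 in iNKT2, and 0.663 and 0.450 in iNKT17 libraries. In Hivep3-/- libraries the levels there were 16.1 and 13.0 in iNKT1, 3.34 and 3.00 in iNKT2, and 0.580 and 0.167 in iNKT17, the last being the lowest value of its library. The start was thus intermediate in iNKT2 cells and nearly closed in iNKT17 cells, with no overlap of subsets in either genotype. The log2 difference of C57BL/6 iNKT1 was 1.21 against iNKT2 (SE 0.490, limma adjusted p = 0.0559), which is under 3-fold, and 4.43 against iNKT17 (adjusted p = 4.91e-06).

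Beyond the 3′ end of Gzma, within introns of the neighbouring gene Cdc20b, stood the regions in which the subsets differed most at this locus. At chr13:113087540-113088039, 13.2 kb downstream of the Gzma start, the level was 37.1 and 35.9 in C57BL/6 iNKT1, 0.758 and 0.304 in iNKT2, and 0.188 and 0.0606 in iNKT17 libraries. At chr13:113090420-113090919, the region of the Gzma window printed with T-box letters, it was 16.3 and 19.3 in iNKT1, 0.0606 and 0.191 in iNKT2, and 0.267 and 0.123 in iNKT17. Both regions were open in iNKT1 alone and near the lowest values in the other subsets. The log2 difference between iNKT1 and iNKT2 was 6.25 (SE 0.896, adjusted p = 7.26e-05) at the first and 7.37 (SE 0.761, adjusted p = 4.69e-06) at the second. Against iNKT17 it was 8.42 at the first, where 1 iNKT17 library was at its lowest value, and 6.61 at the second, both called. Upstream of the gene, chr13:113104685-113105184, stayed under the level filter in C57BL/6 mice at 5.04 and 4.58 in iNKT1 libraries, and no fold is given because both iNKT17 libraries were at their lowest value.

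Gzmb (ENSMUSG00000015437.5, chr14:56258838-56262260, minus strand) encodes granzyme B, which cleaves caspases and other proteins in target cells. Levels at its start, chr14:56262145-56262644, were 97.4 and 95.1 in C57BL/6 iNKT1, 7.59 and 4.58 in iNKT2, and 53.9 and 57.8 in iNKT17 libraries. In Hivep3-/- mice they were 95.9 and 95.2, 2.29 and 4.84, and 56.0 and 51.5 in the same order. The start was open in iNKT1 and iNKT17 cells and low in iNKT2 cells of both genotypes. In C57BL/6 mice the log2 difference of iNKT1 from iNKT2 was 4.03 (SE 0.279, adjusted p = 2.03e-07), and that from iNKT17 was 0.79 (adjusted p = 0.0296), under 3-fold.

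Within the gene body the iNKT17 level of Gzmb was lower. At chr14:56260543-56261042, in an exon, it was 1.31 and 1.28 in C57BL/6 iNKT17, beside 20.8 and 18.1 in iNKT1 and 0.0723 and 0.627 in iNKT2 libraries. The exonic region chr14:56259697-56260196 had 10.4 and 12.5 in iNKT1, 0.0723 and 0.304 in iNKT2, and 0.752 and 0.755 in iNKT17. In both, iNKT1 cells stood apart from the other subsets, and iNKT17 libraries lay above iNKT2 libraries. The log2 difference between iNKT1 and iNKT2 was 6.51 and 6.27 in these regions, and between iNKT1 and iNKT17 it was 3.90 and 3.92, all called, although the last fell under 3-fold with a pseudocount of 5 (1.51). Of the 5 Gzmb regions, 5 were called higher in C57BL/6 iNKT1 than iNKT2 and 3 than iNKT17. The called region chr14:56261572-56262071 also came under 3-fold against iNKT17 with a pseudocount of 5 (1.46).

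Prf1 (ENSMUSG00000037202.6, chr10:61297833-61304680, plus strand) encodes perforin. At the start, chr10:61297425-61297924, levels were 61.7 and 53.1 in C57BL/6 iNKT1, 4.58 and 4.85 in iNKT2, and 5.63 and 5.26 in iNKT17 libraries. An intergenic region 8.56 kb downstream of the start, chr10:61306146-61306645, had 43.7 and 44.0 in iNKT1, 3.88 and 4.92 in iNKT2, and 19.9 and 20.1 in iNKT17. The start was low in both other subsets, whereas the downstream region took an intermediate level in iNKT17 cells. The log2 difference of iNKT1 from iNKT2 was 3.60 (SE 0.213, adjusted p = 6.51e-08) at the start and 3.33 (SE 0.154, adjusted p = 1.21e-08) downstream. From iNKT17 it was 3.40 at the start, which was called, and 1.13 (adjusted p = 3.24e-05) downstream, under 3-fold.

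Nkg7 (ENSMUSG00000004612.9, chr7:43437073-43438249, plus strand) encodes a membrane protein of cytotoxic granules that acts in their release. Levels at its start, chr7:43436792-43437291, were 160.1 and 146 in C57BL/6 iNKT1, 14.8 and 12.2 in iNKT2, and 2.44 and 1.96 in iNKT17 libraries. Upstream in the promoter, chr7:43436248-43436747 had 93.8 and 87.1 in iNKT1, 9.78 and 8.96 in iNKT2, and 3.16 and 1.77 in iNKT17. The start was the most accessible of all 39 regions in iNKT1 cells, and both promoter regions were ordered iNKT1, iNKT2, iNKT17 without overlap. At the start, iNKT1 differed on the log2 scale by 3.51 from iNKT2 (SE 0.251, adjusted p = 2.58e-07) and 6.13 from iNKT17 (adjusted p = 1.2e-09). Within the Cldnd2 promoter, chr7:43442148-43442647 had 43.8 and 41.3 in iNKT1, 2.93 and 2.53 in iNKT2, and 1.88 and 0.941 in iNKT17, with a log2 difference of 3.96 between iNKT1 and iNKT2 (adjusted p = 4.88e-07). The promoter shared by Etfb and Gm45233, chr7:43443786-43444285, was open in every subset, at 108 and 88.3, 77.5 and 84.5, and 83.8 and 77.0, with a log2 difference of 0.27 between iNKT1 and iNKT2 (adjusted p = 0.0494).

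Fasl (ENSMUSG00000000817.10, chr1:161780689-161788495, minus strand) encodes the ligand of the death receptor Fas. Its start, chr1:161788276-161788775, had levels of 87.4 and 80.7 in C57BL/6 iNKT1, 74.7 and 68.4 in iNKT2, and 59.6 and 61.2 in iNKT17 libraries. An intronic region, chr1:161786043-161786542, had 24.3 and 21.1 in iNKT1, 0.501 and 0.333 in iNKT2, and 0.580 and 0.205 in iNKT17. Downstream of the gene, chr1:161776693-161777192 had 19.2 and 18.8 in iNKT1, 0.481 and 0.481 in iNKT2, and 0.115 and 0.205 in iNKT17. The Fasl start was thus open in all 3 subsets, while the intronic and downstream regions were open in iNKT1 cells alone. Compared with iNKT2, the log2 difference of iNKT1 was 0.23 (SE 0.0876, adjusted p = 0.0421) at the start, 5.79 (SE 0.592, adjusted p = 4.29e-06) in the intron and 5.30 (SE 0.462, adjusted p = 1.15e-06) downstream. Of the 8 Fasl regions, 4 were called higher in iNKT1 than in iNKT2 and 5 than in iNKT17. With a pseudocount of 5, the region starting at chr1:161777533 came under 3-fold against iNKT2 (1.36) and iNKT17 (1.23). The region starting at chr1:161794450 did so against iNKT17 (1.45).

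Ccl5 (ENSMUSG00000035042.2, chr11:83525778-83530518, minus strand) encodes a chemokine that attracts T cells and monocytes. Levels at the start, chr11:83530281-83530780, were 14.9 and 16.9 in C57BL/6 iNKT1, 6.17 and 7.32 in iNKT2, and 0.115 and 0.941 in iNKT17 libraries. The most accessible region of the locus lay 4.67 kb upstream at chr11:83534944-83535443, with 121 and 124 in iNKT1, 38.4 and 47.1 in iNKT2, and 2.44 and 1.67 in iNKT17. Both were intermediate in iNKT2 and low in iNKT17 cells, without overlap. The log2 difference of iNKT1 from iNKT2 was 1.24 at the start (SE 0.855, adjusted p = 0.255) and 1.53 at the upstream region (SE 0.198, adjusted p = 3.04e-05), the second just under 3-fold and over it, at 1.68, without C57BL/6 iNKT2 replicate 2. From iNKT17 it was 5.59 (adjusted p = 8.6e-05) at the start and 5.93 (adjusted p = 3.87e-10) upstream.

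Other Ccl5 regions separated iNKT1 from iNKT2 more widely. The intronic region chr11:83527055-83527554 had 5.88 and 5.66 in iNKT1, 0.261 and 0.333 in iNKT2, and 0.0606 and 0.205 in iNKT17 libraries of C57BL/6 mice. Farther upstream, chr11:83536957-83537456 had 48.9 and 44.7 in iNKT1, 8.75 and 9.57 in iNKT2, and 0.934 and 0.0606 in iNKT17, where 0.0606 is the lowest value of its library. These regions were likewise highest in iNKT1 cells and lowest or near lowest in iNKT17 cells. Between iNKT1 and iNKT2 the log2 difference was 4.29 (SE 0.915, adjusted p = 0.00156) in the intron and 2.35 (SE 0.818, adjusted p = 0.0291) at the far region. With a pseudocount of 5 the intronic difference was 1.02, under 3-fold. The call at the far region was lost without C57BL/6 iNKT1 replicate 1 (2.29, adjusted p = 0.109) and without C57BL/6 iNKT2 replicate 1 (2.29, adjusted p = 0.107). At Ccl5, 3 of 7 regions were called higher in iNKT1 than in iNKT2 and 7 of 7 than in iNKT17. With a pseudocount of 5, the region beyond the 3′ end came under 3-fold against iNKT2 (1.08) and iNKT17 (1.32). The intronic region also came under 3-fold against iNKT17 (1.07).

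Xcl1 (ENSMUSG00000026573.7, chr1:164931644-164935527, minus strand) encodes lymphotactin, a chemokine that attracts cross-presenting dendritic cells. The start, chr1:164935505-164936004, had levels of 85.9 and 88.6 in C57BL/6 iNKT1, 17.4 and 14.5 in iNKT2, and 0.752 and 1.36 in iNKT17 libraries. In an exon, chr1:164931572-164932071 had 21.0 and 28.1 in iNKT1, 0.481 and 0.685 in iNKT2, and 0.0606 and 0.123 in iNKT17, with the 0.0606 at the lowest value of its library. The start kept a low level in iNKT2 cells that was absent from iNKT17 cells, and the exonic region was near closed in both. On the log2 scale, iNKT1 exceeded iNKT2 by 2.45 (SE 0.279, adjusted p = 1.05e-05) at the start and 5.40 (SE 0.731, adjusted p = 4.48e-05) in the exon, and exceeded iNKT17 by 6.43 (adjusted p = 1.7e-09) at the start. Beyond the 3′ end, in an intron of Gm20743, chr1:164930966-164931465 had 27.8 and 47.3 in iNKT1 and 1.10 and 2.53 in iNKT2 libraries, and no fold against iNKT17 is given because both of its libraries were at their lowest value. All 5 Xcl1 regions were called higher in iNKT1 than in each of the other subsets. With a pseudocount of 5, the region starting at chr1:164933742 came just under 3-fold against iNKT2 (1.57).

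**Figure D3:**
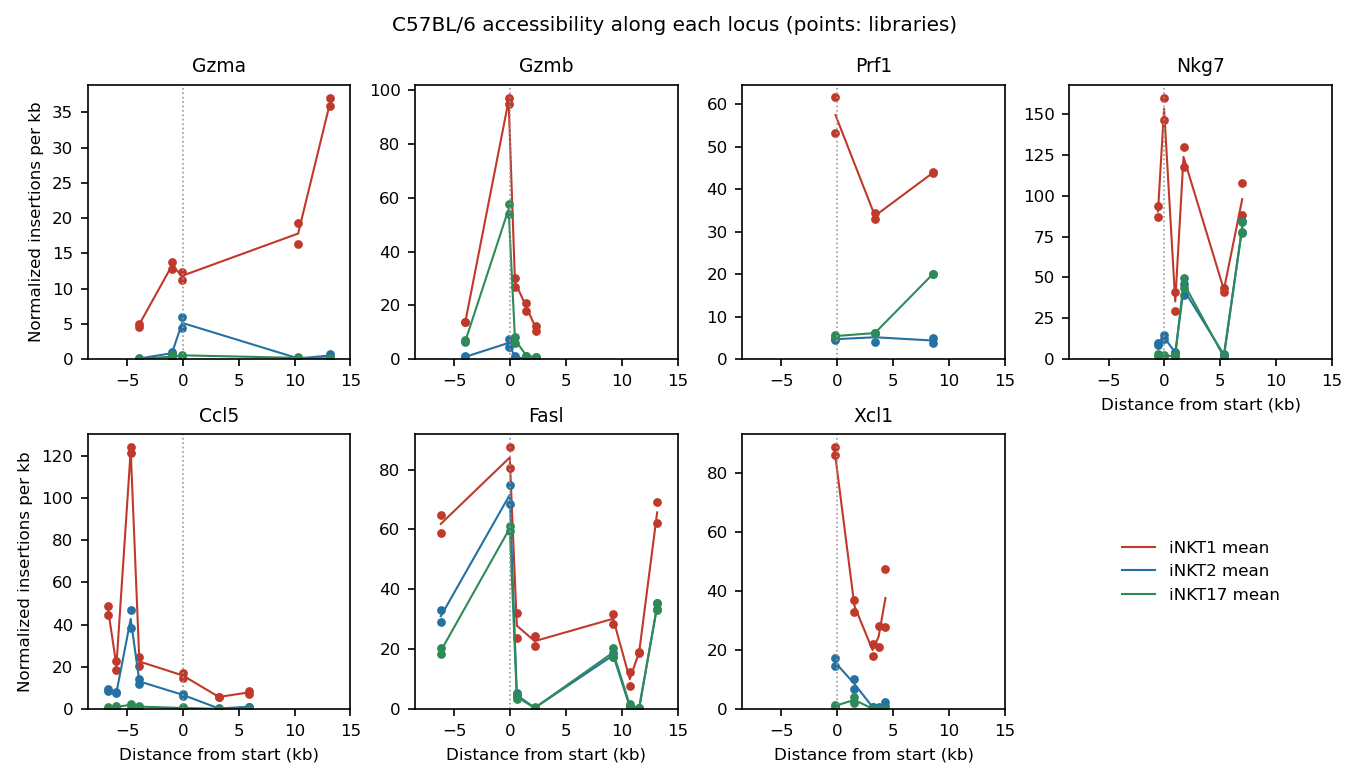
Level of each effector region in C57BL/6 iNKT1, iNKT2 and iNKT17 cells, in normalized insertions per kb on a linear axis (points, libraries; lines, means), against the distance of its centre from the gene start in kb, with 1 panel per locus. The subsets lie close together at the Fasl start and the Etfb promoter beside Nkg7, and far apart at the regions in and beyond the Gzma, Gzmb and Xcl1 gene bodies.

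Differences between the iNKT2 and iNKT17 subsets of C57BL/6 mice went in both directions. Of 22 regions tested, 9 were called higher in iNKT2 and 4 lower, beside 7.72% higher and 8.49% lower of all tested regions, and the median log2 difference was 0.46 against 0.030 over all. Ccl5 gave 5 of the higher regions, Nkg7 2, Gzma 1 and Xcl1 1, while the 4 lower regions were 3 at Gzmb and 1 at Prf1. Apart from the Gzmb start, all 13 called regions passed the level filter only through the subset with the higher level. Calls at the chemokine genes, Nkg7 and the Gzma start were thus higher in iNKT2 cells, and those at Gzmb and downstream of Prf1 higher in iNKT17 cells. At the Gzmb start the log2 difference of iNKT2 from iNKT17 was -3.24 (SE 0.279, adjusted p = 9.17e-07) and downstream of Prf1 it was -2.20 (SE 0.154, adjusted p = 1.65e-07). It was 4.40 (SE 0.198, adjusted p = 9.27e-09) at the Ccl5 region 4.67 kb upstream, 3.98 (SE 0.279, adjusted p = 1.64e-07) at the Xcl1 start and 2.62 (SE 0.251, adjusted p = 2.26e-06) at the Nkg7 start. With a pseudocount of 5 only 3 of these 13 calls remained, at the Gzmb start, the Ccl5 region 4.67 kb upstream and the Xcl1 start, while the Gzma start (0.87), the Nkg7 start (1.36) and the region downstream of Prf1 (-1.42) came under 3-fold. The upstream Nkg7 promoter, at 1.99 (adjusted p = 0.000169), fell under 3-fold (1.57) without C57BL/6 iNKT17 replicate 2. No Fasl region was called between these subsets. Their libraries lay apart with the higher level in iNKT2 at 23 of the 39 regions and 39.7% of all, and with the lower level at 8 and 32.5%. The median over tested regions hides opposite directions at different genes.

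Subsets of Hivep3-/- mice were compared in the same way. Between iNKT1 and iNKT2, 34 of 39 tested regions were called higher in iNKT1 and 0 lower, beside 8.77% and 8.54% of all tested regions. An unadjusted p under 0.05 was found for 38 of these and 57.7% of all regions, and the libraries overlapped in none of the 39. In 38 they were higher in iNKT1, as in 36.2% of all regions, and at the Fasl start lower, as in 39.6%. Against iNKT17, 32 of 39 were called higher and 0 lower, beside 9.48% and 9.83%, and 38 had an unadjusted p under 0.05, as had 55.9% of all. Between iNKT2 and iNKT17, 5 of 18 were called higher in iNKT2 and 4 lower, beside 7.33% and 8.25%. The medians of the members were 4.12, 4.56 and -0.040 on the log2 scale, and those of all tested regions -0.012, 0.021 and 0.040. By gene, regions called between Hivep3-/- iNKT1 and iNKT2 numbered 5 at Gzma, 5 at Gzmb, 3 at Prf1, 5 at Nkg7, 4 at Fasl, 7 at Ccl5 and 5 at Xcl1. A pseudocount of 5 brought the Gzma start (1.26), the region upstream of Gzma (1.38) and regions of Ccl5, Fasl and Xcl1 under 3-fold. The Fasl region starting at chr1:161787643 also came under it with a pseudocount of 1 (1.47). The same happened without Hivep3-/- iNKT1 replicate 1 (1.49) or Hivep3-/- iNKT2 replicate 1 (1.43). The 5 regions higher in Hivep3-/- iNKT2 than iNKT17 were 4 at Ccl5 and 1 at Xcl1, and the 4 lower were 2 at Gzmb and 2 at Prf1. With a pseudocount of 5, only the calls at the Gzmb start and the most accessible Ccl5 region remained between these subsets. The Nkg7 promoter regions and the Gzma start were not tested there, since neither subset reached a mean level of 5.

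The genotypes were then compared within each subset. In iNKT1 cells, 0 of 39 effector regions were called by limma in either direction, beside 0.89% of all tested regions called higher in Hivep3-/- and 0.264% lower, and 2 of the 39 had an unadjusted p under 0.05, as had 17.8% of all tested regions. In iNKT2 cells, 0 of 20 were called higher and 2 lower in Hivep3-/-, beside 0.474% and 1.2%, and 10 had an unadjusted p under 0.05, against 25.3% of all. Both regions called had passed the level filter only through C57BL/6 iNKT2 cells. In iNKT17 cells, 0 of 13 were called by limma in either direction, beside 0.133% and 0.138%, and 7 had an unadjusted p under 0.05, against 15.8% of all. Going from iNKT1 through iNKT2 to iNKT17, the members' median log2 difference of Hivep3-/- from C57BL/6 was 0.10, -0.39 and 0.23, and that of all tested regions -0.018, -0.0011 and -0.012. With 2 libraries against 2, an exact permutation test of a single region cannot go below p = 0.333, so the calls rest on limma's shared estimate of the spread.

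**Figure D4:**
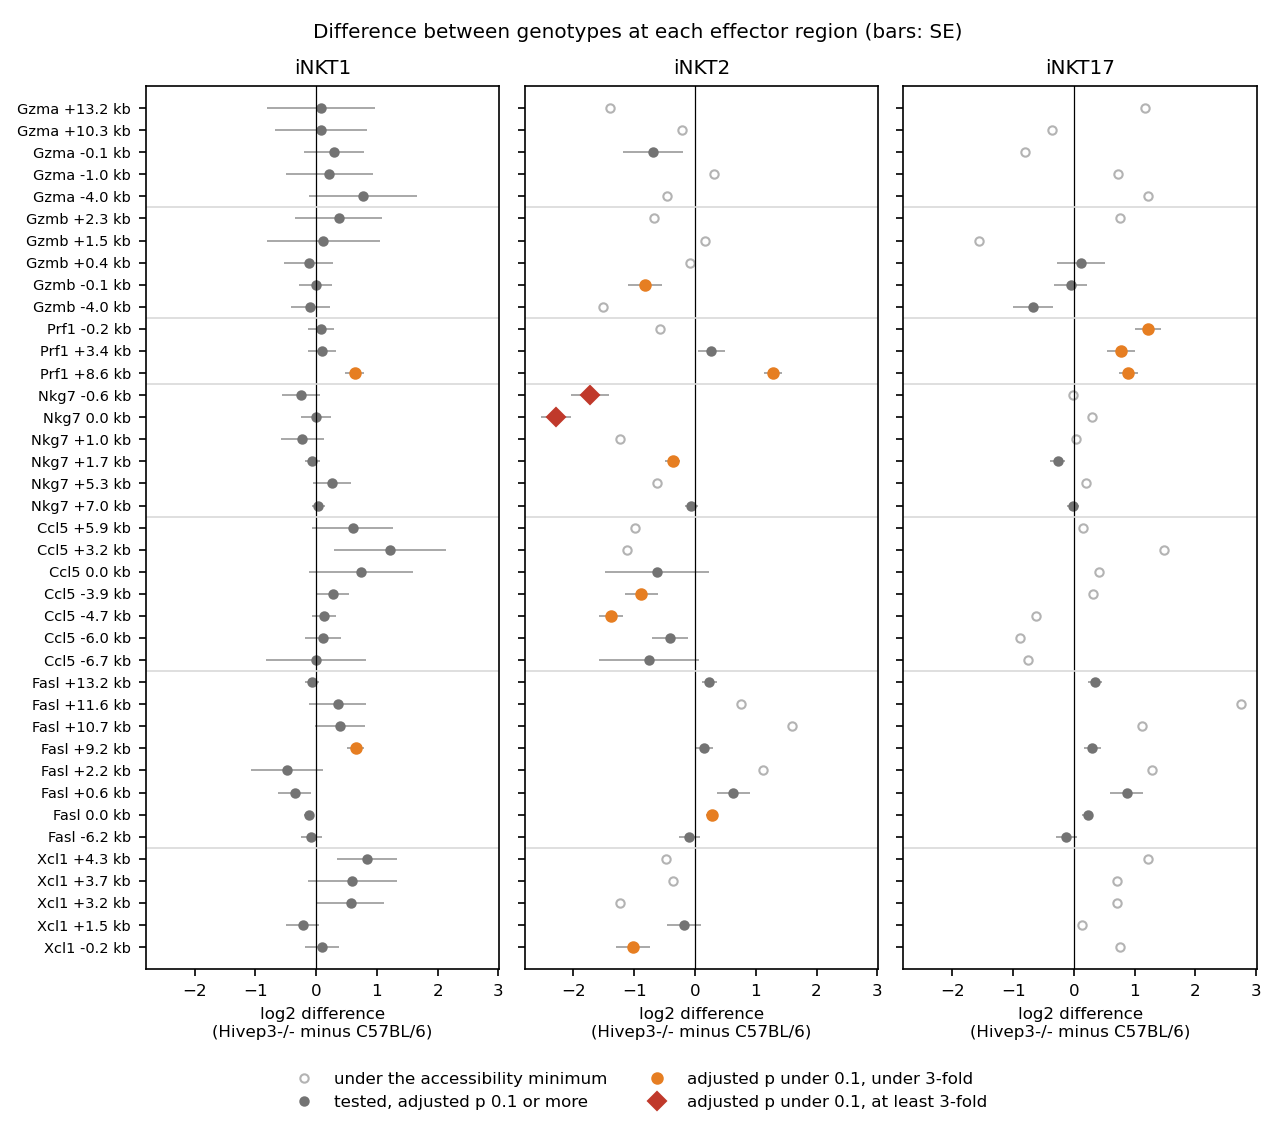
Log2 difference of Hivep3-/- from C57BL/6 for each effector region by subset, with bars of 1 SE for the tested regions and open circles for regions under the level filter. The called regions are the pair at the Nkg7 promoter in iNKT2 cells, at -2.29 and -1.73, and regions of Prf1 lie above 0 in iNKT17 cells.

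The regions called between the genotypes were both at the Nkg7 promoter and in iNKT2 cells. At the start, chr7:43436792-43437291, the iNKT2 level was 14.8 and 12.2 for C57BL/6 and 2.72 and 2.77 for Hivep3-/- libraries, and in the upstream region, chr7:43436248-43436747, it was 9.78 and 8.96 against 3.94 and 2.02. The Hivep3-/- iNKT2 libraries came down to the level of the iNKT17 libraries, which at the start were 2.44 and 1.96 in C57BL/6 and 3.68 and 1.95 in Hivep3-/- mice. In iNKT1 cells the start had 160.1 and 146 in C57BL/6 and 157 and 149 in Hivep3-/- libraries, so the genotypes overlapped there. Accessibility in iNKT2 fell by 2.29 on the log2 scale at the start (SE 0.251, adjusted p = 0.000197) and by 1.73 in the upstream region (SE 0.318, adjusted p = 0.00418), lower in both libraries in each case. As a share of the iNKT1 level, the iNKT2 level at the start was 8.81% in C57BL/6 and 1.79% in Hivep3-/- mice. The call of the upstream region was lost without Hivep3-/- iNKT2 replicate 2 (-1.25, adjusted p = 0.0369, under 3-fold) and with a pseudocount of 1 (-1.42) or 5 (-0.86). That of the start was lost with a pseudocount of 5 alone (-1.25). Of the other Nkg7 regions in iNKT2, chr7:43438534-43439033 had a log2 difference of -0.37 (adjusted p = 0.0866), under 3-fold. Below the level filter, chr7:43437791-43438290 was at -1.23 and the Cldnd2 promoter at -0.62, lower in both libraries and not tested.

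Markers of other subsets were read beside this result. Among the 28 tested regions at iNKT1 markers, 4 were called lower in Hivep3-/- iNKT2, beside 1.2% of all, 1 each at Tbx21, Klrb1c, Cxcr3 and Ifng. Tbx21 encodes T-bet, Klrb1c the receptor NK1.1, Cxcr3 a chemokine receptor and Ifng interferon gamma. At the Ifng start, chr10:118440640-118441139, the iNKT2 level was 30.6 and 25.8 in C57BL/6 and 6.07 and 7.21 in Hivep3-/- libraries, a log2 difference of -2.08 (SE 0.241, adjusted p = 0.000285), beside 89.3 and 84.2 and 88.6 and 76.7 in the iNKT1 libraries. The summed level of the iNKT1 list in iNKT2 libraries was 858 and 869.8 in C57BL/6 and 775 and 815 in Hivep3-/- mice, and its most accessible gene was Il2rb. The 25 regions at NK cell markers summed to 614 and 567 in iNKT2 libraries of C57BL/6 and 631 and 632 in those of Hivep3-/- mice, with no call between the genotypes, Tyrobp as the most accessible gene and no region at Ncr1. At these NK cell markers the ratio of iNKT2 locus means, Hivep3-/- over C57BL/6, was 0.317 at Klra8 and 0.681 at Klri2. It was 1.03 at Fcgr3, 1.07 at Eomes and 1.12 at Tyrobp. Klra8 had 1 region, below the level filter in iNKT2 cells of both genotypes. The CD8 genes Cd8a and Cd8b1 had no region. Steps below the median were also fewer in the iNKT2 libraries of Hivep3-/- mice, at 91 and 118, than in those of C57BL/6, at 219 and 159. The part of these markers or steps in the Nkg7 result was not tested.

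At Prf1, levels in Hivep3-/- cells were above those in C57BL/6 cells in all 3 subsets in the region 8.56 kb downstream of the start. They were 66.9 and 69.2 against 43.7 and 44.0 in iNKT1, 10.1 and 11.3 against 3.88 and 4.92 in iNKT2, and 34.2 and 40.7 against 19.9 and 20.1 in iNKT17 libraries. Among iNKT1 libraries, those of Hivep3-/- lay wholly above those of C57BL/6 at 15933 of all 63309 regions, and wholly below at 17948. The same counts were 17216 and 16219 for iNKT2, and 13787 and 14099 for iNKT17. At this Prf1 region the genotypes did not overlap in any subset. The log2 difference was 0.63 (SE 0.154, adjusted p = 0.0267) in iNKT1, 1.28 (SE 0.154, adjusted p = 0.000359) in iNKT2 and 0.90 (SE 0.154, adjusted p = 0.012) in iNKT17, all under 3-fold and so not called. The Prf1 start had 13.9 and 11.6 in Hivep3-/- and 5.63 and 5.26 in C57BL/6 iNKT17 libraries, a log2 difference of 1.22 (SE 0.213, adjusted p = 0.0126). In iNKT2 cells the start went the other way, with 3.94 and 2.53 in Hivep3-/- and 4.58 and 4.85 in C57BL/6 libraries, too low to be tested. The ratio of the Prf1 locus means, Hivep3-/- over C57BL/6, was lowest for iNKT1 (1.22), then came iNKT2 (1.40) and iNKT17 (1.92).

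Of the chemokine genes, 5 regions at Ccl5 and 2 at Xcl1 were tested between genotypes in iNKT2 cells. An adjusted p under 0.1 was reached by 2 and 1 of them, beside 16.4% of all tested regions. These were lower in Hivep3-/- by less than 3-fold, and the other 4 had an adjusted p of 0.429 to 0.748. The Ccl5 region 4.67 kb upstream, chr11:83534944-83535443, had iNKT2 levels of 38.4 and 47.1 for C57BL/6 and 16.5 and 16.2 for Hivep3-/- libraries, a log2 difference of -1.38 (SE 0.198, adjusted p = 0.00104). At the Xcl1 start, chr1:164935505-164936004, the level was 17.4 and 14.5 against 10.1 and 6.12, a log2 difference of -1.02 (SE 0.279, adjusted p = 0.0329). The genotypes did not overlap in either region. Of all 63309 regions, 16219 lay apart in this direction in iNKT2 cells and 17216 in the other. In iNKT1 cells the Ccl5 region had 121 and 124 in C57BL/6 and 137 and 132 in Hivep3-/- libraries, and the Xcl1 start 85.9 and 88.6 and 91.1 and 96.3, each higher in Hivep3-/- without passing the test. The limma interaction of iNKT1 against iNKT2 was 1.51 (adjusted p = 0.00763) at the Ccl5 region, under 3-fold. Without C57BL/6 iNKT2 replicate 1 it was 1.65, over 3-fold. At the Xcl1 start the interaction was 1.12 (limma adjusted p = 0.116). The iNKT2 locus mean of Hivep3-/- mice was 0.494 times that of C57BL/6 at Ccl5 and 0.637 times at Xcl1.

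No region of the granzymes or Fasl was called between the genotypes. At the Gzmb start the iNKT2 level was 7.59 and 4.58 in C57BL/6 and 2.29 and 4.84 in Hivep3-/- libraries, which overlapped, with a log2 difference of -0.82 (SE 0.279, adjusted p = 0.0785). The Gzma start had 4.38 and 5.93 against 3.34 and 3.00 in iNKT2 libraries. At the Fasl start the iNKT2 level was 74.7 and 68.4 in C57BL/6 and 89.8 and 83.2 in Hivep3-/- libraries, a log2 difference of 0.27 (SE 0.0876, adjusted p = 0.0627). Downstream of Fasl, chr1:161779017-161779516 had 31.8 and 28.5 in C57BL/6 and 49.2 and 45.3 in Hivep3-/- iNKT1 libraries, a log2 difference of 0.65 (SE 0.136, adjusted p = 0.0121), under 3-fold. In iNKT2 cells the Fasl start was thus higher and the Gzma start lower in both Hivep3-/- libraries. In iNKT1 cells the levels were 79.0 and 76.1 against 87.4 and 80.7 for Fasl (adjusted p = 0.599) and 16.1 and 13.0 against 11.2 and 12.4 for Gzma (adjusted p = 0.865). Neither passed the test there, nor did the Gzma start in iNKT2 (adjusted p = 0.427). The interaction of iNKT1 against iNKT2 was 0.98 at the Gzma start (adjusted p = 0.474) and -0.39 at the Fasl start (adjusted p = 0.0845), under 3-fold. The iNKT2 locus mean of Hivep3-/- mice was 0.585 times that of C57BL/6 at Gzmb, where 4 of 5 regions were under the level filter in that comparison. No test compared the genes with each other.

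**Figure D5:**
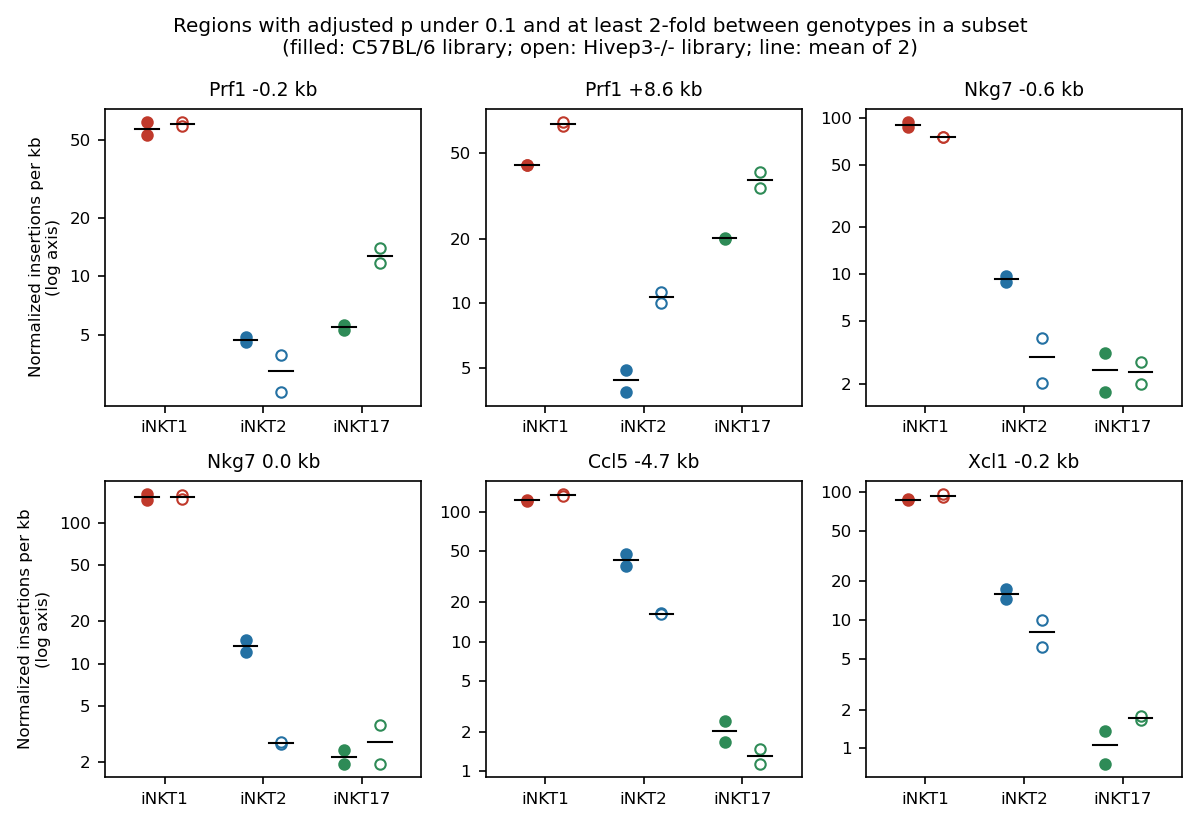
Level of 6 effector regions in each library, in normalized insertions per kb on a log axis, by subset and genotype, chosen for an adjusted p under 0.1 with at least a 2-fold difference between genotypes in some subset. In iNKT2 cells the Hivep3-/- points lie below the C57BL/6 points at Nkg7, Ccl5 and Xcl1 and above them downstream of Prf1, and at the Prf1 start they lie above in iNKT17 cells.

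In iNKT1 cells the genotypes also differed at markers, although no effector region was called. Of 119 tested regions at iNKT2 markers, 7 were called lower in Hivep3-/- iNKT1 and 1 higher, beside 0.264% and 0.89% of all tested regions. These were 6 lower regions at Zbtb16, which encodes PLZF, 1 lower at Il4, and 1 higher at Slamf6. A region at the B cell marker Pax5, chr4:44674936-44675435, was also called higher, from 5.96 and 5.30 in C57BL/6 to 17.2 and 17.0 in Hivep3-/- iNKT1 libraries, a log2 difference of 1.61 (adjusted p = 0.00572). The summed level over the 149 regions at iNKT2 markers was 3740.3 and 3543 in C57BL/6 and 2754 and 2608 in Hivep3-/- iNKT1 libraries, and 5488 and 5261 against 4993 and 5004 in iNKT2 libraries. No region at iNKT17 markers was called between the genotypes. The part of these markers in the iNKT1 values of the effector regions was not tested.

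An interaction term tested if subsets differed in the difference between genotypes. For iNKT1 against iNKT2, 1 of 39 regions was called, beside 3.06% of all tested regions, for iNKT1 against iNKT17 1 of 39 beside 1.42%, and for iNKT2 against iNKT17 4 of 23 beside 1.02%. The members' medians were 0.75, -0.24 and -0.24 on the log2 scale, and those of all tested regions -0.011, -0.014 and 0.028. The Nkg7 start was called in iNKT1 against iNKT2, where the change in iNKT1 exceeded that in iNKT2 by 2.29 (SE 0.355, adjusted p = 0.00314), and in iNKT2 against iNKT17 at -2.58 (SE 0.355, adjusted p = 0.00529). Leaving out any of the 12 libraries kept both calls, and a pseudocount of 5 brought both under 3-fold (1.25 and -1.36). In iNKT2 against iNKT17, the Prf1 start was called at -1.80 (SE 0.301, adjusted p = 0.014), and came under 3-fold without Hivep3-/- iNKT2 replicate 2 (-1.48) and with a pseudocount of 1 (-1.54) or 5 (-1.01). The Xcl1 start was called at -1.78 (SE 0.394, adjusted p = 0.0447), with iNKT17 levels of 0.752 and 1.36 in C57BL/6 and 1.67 and 1.76 in Hivep3-/- libraries. That call was lost without C57BL/6 iNKT2 replicate 1 (adjusted p = 0.147), iNKT2 replicate 2 (adjusted p = 0.106) or iNKT17 replicate 1 (adjusted p = 0.122), and without Hivep3-/- iNKT2 replicate 2 (adjusted p = 0.103). It was also lost with a pseudocount of 1 (-1.35) or 5 (-0.85) and in a fit to only the groups compared (adjusted p = 0.177).

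The remaining interaction calls were lost without most single libraries. The upstream Nkg7 promoter reached -1.72 (SE 0.449, adjusted p = 0.0819) in iNKT2 against iNKT17, and kept its call only without C57BL/6 iNKT17 replicate 1, Hivep3-/- iNKT2 replicate 1 or Hivep3-/- iNKT17 replicate 1. Without each of the other 9 libraries its adjusted p was 0.115 to 0.216. The call was also lost with a pseudocount of 1 (-1.41) or 5 (-0.85), with quantile normalization renewed (adjusted p = 0.105) and in a fit to only the groups compared (adjusted p = 0.238). The Fasl region 11.6 kb downstream of the start, chr1:161776693-161777192, reached -2.40 (SE 0.654, adjusted p = 0.0885) in iNKT1 against iNKT17. Its iNKT17 levels were 0.115 and 0.205 in C57BL/6 and 0.934 and 1.14 in Hivep3-/- libraries, near the lowest values, beside 19.2 and 18.8 and 25.2 and 23.4 in iNKT1. It kept its call only without C57BL/6 iNKT17 replicate 2 or either Hivep3-/- iNKT2 library, and had an adjusted p of 0.103 to 0.343 without each of the other 9. The log2 value became -0.48 with a pseudocount of 1 and 0.059 with one of 5.

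A list of 27 other genes of the cytotoxic machinery was set beside the members, of which 23 had 115 regions and Gzmd, Gzme, Gzmg and Gzmn had none. Between C57BL/6 iNKT1 and iNKT2, 27 of 111 tested regions were called higher in iNKT1 and 1 lower, at 13 genes and 1 gene, beside the 7.33% and 8.71% of all tested regions, with a median log2 difference of 0.49. The largest differences were 6.52 at Ccl4 (SE 1.12, adjusted p = 0.000303), 5.80 at Ccl9 (SE 0.958, adjusted p = 0.000224), where 1 iNKT2 library was at its lowest value, and 5.16 (SE 0.613, adjusted p = 1.52e-05) at a region shared by Ccl3 and Ccl4, all genes of chemokines. Levels of the Ccl4 region, chr11:83662101-83662600, were 28.0 and 26.1 in iNKT1, 1.20 and 0.0723 in iNKT2, and 0.0606 and 0.0606 in iNKT17 libraries. The lower region was at Rab27a, a GTPase of granule docking, at -1.86 (adjusted p = 1.07e-05). Against iNKT17, 27 of 113 were called higher and 2 lower, beside 9.72% and 10.8%, with a median of 0.34. The lower regions were at Srgn, which encodes the granule proteoglycan serglycin, at -7.64 (adjusted p = 8.96e-08), where 1 iNKT1 library was at its lowest value, and at Gzmc, at -2.99 (adjusted p = 0.000902). The largest rise for which a fold can be given was 6.63 at Ccl3 (adjusted p = 2.64e-06), with 1 iNKT17 library at its lowest value.

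Between the genotypes, this list held 1 region called higher in Hivep3-/- iNKT1 of 113, beside 0.89% of all, so that its share was that of all regions. It held 2 called lower in iNKT2 of 87, beside 1.2%. In iNKT17, 0 of 93 were called by limma and 15 had an unadjusted p under 0.05, beside 15.8% of all. Crtam, which encodes an adhesion receptor of cytotoxic lymphocytes, rose at chr9:40994059-40994558 from 7.41 and 10.4 in C57BL/6 iNKT1 to 35.4 and 40.3 in Hivep3-/- iNKT1 libraries, a log2 difference of 2.10 (SE 0.259, adjusted p = 0.000429). Its iNKT17 level there was 18.2 and 19.5 in C57BL/6 and 30.0 and 33.8 in Hivep3-/- libraries. Both lower regions were at Slamf7, a receptor of the SLAM family. In chr1:171629126-171629625 the iNKT2 level fell by 2.55 on the log2 scale (SE 0.245, adjusted p = 9.3e-05), from 14.0 and 9.90 in C57BL/6 to 1.87 and 2.15 in Hivep3-/- libraries. The iNKT1 level of that region was 109 and 102 in C57BL/6 and 96.9 and 92.1 in Hivep3-/- libraries, and its interaction of iNKT1 against iNKT2 was 2.40 (adjusted p = 0.00224).

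The limit of 10 kb left out regions close by. The nearest region outside it lay 10074 bp from Xcl1, with a mean level of 1.72 in C57BL/6 and 9.46 in Hivep3-/- iNKT1 cells, and the nearest outside Ccl5 lay 10350 bp away, with 11.2 in C57BL/6 iNKT1 and 0.362 in iNKT17 cells. Outside Fasl the nearest was 10360 bp away, at 32.3 in C57BL/6 iNKT1, 6.32 in iNKT2 and 5.48 in iNKT17. The farthest regions inside were 6439 bp from Ccl5, at 46.8 in C57BL/6 iNKT1, and 5955 bp from Fasl, at 61.8. Regions on both sides of the limit were most accessible in iNKT1 cells at these 3 loci. The nearest region outside Nkg7, 12399 bp away, was higher in C57BL/6 iNKT2 cells, at 11.5, than in iNKT1, at 10.4.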

How the data were processed

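The deposited table holds log2 values that the authors made by trimming reads (Trimmomatic 0.39), aligning to mm10 with the ENCODE pipeline, counting insertions in regions of 500 bp (chromVAR) and normalizing with voom. Levels were read as insertions per kb, and 0 columns were unmapped. limma 3.58.1 in R 4.3.3 fitted 6 group means over all regions, with 6 residual and 7.17 prior degrees of freedom, and p-values were adjusted (BH) over regions with a mean of at least 5 in either group. Tables and sequences used Python 3.11.15, pandas 2.3.3, numpy 2.4.6, pysam 0.24.0 and matplotlib 3.10.9. The code was tested on simulated data. Members and lists were chosen with earlier results of these data known. Regions named include those nearest each start, those with the highest mean level and those with the largest or called differences. A few others were named outside these rules. The design named the central bases of regions for printing, but 200 bases free of UTR were printed, chosen by their matches. Libraries with the same number within a genotype were taken as pairs from the titles. Pairwise residual correlations were 0.163 to 0.237 within a genotype, 0.149 to 0.225 within a subset and 0.143 to 0.242 otherwise.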

Additional observations from a re-analysis of the deposited data

Results flagged for a closer look

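In 6 results the interaction term of limma, which compares the difference between genotypes in 2 subsets, passed the test. The log2 values were 2.29 at the Nkg7 start between iNKT1 and iNKT2, and -2.40 at the Fasl region chr1:161776693-161777192 between iNKT1 and iNKT17. Between iNKT2 and iNKT17 they were -2.58 at the Nkg7 start, -1.72 at the upstream Nkg7 promoter, -1.80 at the Prf1 start and -1.78 at the Xcl1 start. These are 1 of 39, 1 of 39 and 4 of 23 effector regions tested, beside 3.06%, 1.42% and 1.02% of all. With a pseudocount of 1 only the calls at the Nkg7 start remained, and with one of 5 none did.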

How the results depend on the processing

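Counts of effector regions called moved with the settings. With no filter on low values, 21 in place of 13 were called between C57BL/6 iNKT2 and iNKT17, 16 in place of 9 between the same subsets of Hivep3-/- mice, and 1 in place of 0 between genotypes in iNKT17. Under a filter on the mean over all libraries, the last 2 counts were 14 and 1. A pseudocount of 5 gave 3 and 2 between iNKT2 and iNKT17 of C57BL/6 and Hivep3-/- mice, 0 in place of 2 between genotypes in iNKT2, and 0 for each interaction, while a pseudocount of 1 gave 1 between genotypes in iNKT2, and 0 and 1 for the interactions of iNKT1 and iNKT2 with iNKT17, in place of 1 and 4. A fit to only the groups compared gave 3 for the interaction of iNKT1 with iNKT2 in place of 1, and 2 for iNKT2 with iNKT17. Leaving out 1 library gave 1 to 2 between genotypes in iNKT2, and 1 to 2, 0 to 2 and 1 to 4 for the interactions. Pairing libraries as a block changed no count, with 27 still called between C57BL/6 iNKT1 and iNKT2. Some calls between iNKT1 and the other subsets also came under 3-fold with a pseudocount of 5. In C57BL/6 mice these lay at Ccl5, Fasl and Xcl1 against iNKT2, and at Gzmb, Ccl5 and Fasl against iNKT17. In Hivep3-/- mice they lay at Gzma, Ccl5, Fasl and Xcl1 against iNKT2, and at Gzma, Gzmb, Prf1, Nkg7 and Fasl against iNKT17. The Fasl interaction between iNKT1 and iNKT17 turned direction with a pseudocount of 5, to 0.059 on the log2 scale, and the cause was not tested. Over 179 results for single effector regions, 3468 of 3564 other values kept their call or its absence. Of the rest, 92 were weaker, 3 stronger and 1 reversed. Most of the 179 results compared iNKT1 with another subset, so these totals say little about the calls between genotypes and of interactions. With 2 libraries per group, depth unknown and pooled thymi, variation between animals cannot be read from these values.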
